A study of Homo sapiens with 12 samples.

Results

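EPHX1, GSTA1, GSTA5 and SULT2A1 are 4 genes of drug and steroid detoxification, and their transcripts were followed here in HepaRG, an established line from a human liver tumour that can differentiate into hepatocyte-like and biliary-like cells. They were chosen by symbol, 4 of the 15822 loci of the deposited expression table, and all 4 passed the filter on low values. The 12 libraries form 6 groups of 2: cells whose human CAR, the constitutive androstane receptor, is knocked out (hCAR-KO, called KO) under phenobarbital (PB), CITCO or the solvent DMSO, and wild-type (WT) cells under PB, CITCO or DMSO. PB is a barbiturate that activates CAR indirectly and in human cells also binds the pregnane X receptor PXR, and CITCO is a synthetic agonist of human CAR. The sources used here do not give doses, exposure times, the position of the edit, or whether the KO cells are 1 clone. Since no label calls the duplicates separate cultures, the p-values reflect no more than the spread between the libraries at hand, possibly a technical one.

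The 4 genes act after, or beside, the cytochromes P450. EPHX1 encodes microsomal epoxide hydrolase, which sits in the membrane of the endoplasmic reticulum and adds water to reactive epoxides that P450 enzymes make, giving diols. GSTA1 and GSTA5 belong to the alpha class of cytosolic glutathione transferases, which join glutathione to electrophiles. GSTA1 is a major form of human liver and also isomerises ketosteroids, whereas GSTA5 is a minor gene of the same cluster on chromosome 6. SULT2A1 is the hepatic and adrenal sulfotransferase that passes sulfate from the donor PAPS to dehydroepiandrosterone and bile acids. EPHX1, GSTA1 and SULT2A1 are known as liver genes that drugs can induce through nuclear receptors.

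Among the alpha class genes GSTA1, GSTA2 and GSTA5 are close copies, which bears on how reads could be assigned to them. The first 60 coding bases of the GENCODE transcripts are shown 5′ to 3′ because they let the likeness be seen, with capitals at bases that differ from GSTA1.
GSTA1: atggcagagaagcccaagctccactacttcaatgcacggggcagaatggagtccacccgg
GSTA2: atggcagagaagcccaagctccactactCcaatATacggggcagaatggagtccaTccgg
GSTA5: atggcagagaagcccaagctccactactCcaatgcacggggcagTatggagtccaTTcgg
GSTA2 and GSTA5 each differed from GSTA1 at 4 of these 60 bases. Over the whole coding sequence of 669 bases, GSTA1 was 96.7% identical to GSTA2, 93.6% identical to GSTA5 (626 bases) and 63.8% identical to GSTA4. GSTA3, also of the class, was nearly as close to GSTA1 as GSTA5 was, at 92.5%. Of the windows of 50 bases in the GSTA1 transcript, 28.9% occur unchanged in another transcript of the class, against 6.76% of those in GSTA5. With windows of 100 bases the shares were 12% for GSTA1, all with GSTA2, and 0% for GSTA5. The sources used here give neither read length nor the treatment of reads with several matches, so the levels of GSTA1, GSTA2 and GSTA5 are uncertain by the reads they share.

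Promoters of the 3 genes that rose with PB in both genotypes are shown next, because these genes shared that rise. Each runs from 250 bases before to 50 bases after a start site, on the gene's own strand, 5′ to 3′, from RefSeq (GRCh38.p14). Capitals mark the motifs found, on either strand, among the nuclear receptor half-sites with G, spelled AGGTCA, or with T in place of that letter, spelled AGTTCA, and the core of the antioxidant response element, spelled TGACNNNGC. The half-site of the liver factor HNF1, spelled GTTAAT, and the TATA box, spelled TATAAA, were searched too. RefSeq gives EPHX1 3 starts, and only the third is shown, at chr1:225825104-225825403 on the plus strand. It is the only 1 of the 3 with a match, so it does not stand for the other starts.
EPHX1 start 3: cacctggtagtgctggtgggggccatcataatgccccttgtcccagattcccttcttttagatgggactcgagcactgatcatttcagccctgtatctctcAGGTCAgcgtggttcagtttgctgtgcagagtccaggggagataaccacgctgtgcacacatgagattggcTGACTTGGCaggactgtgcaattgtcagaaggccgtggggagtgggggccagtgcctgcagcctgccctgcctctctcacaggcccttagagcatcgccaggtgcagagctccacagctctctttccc
The GSTA1 window lies at chr6:52803767-52804066 on the minus strand.
GSTA1 promoter: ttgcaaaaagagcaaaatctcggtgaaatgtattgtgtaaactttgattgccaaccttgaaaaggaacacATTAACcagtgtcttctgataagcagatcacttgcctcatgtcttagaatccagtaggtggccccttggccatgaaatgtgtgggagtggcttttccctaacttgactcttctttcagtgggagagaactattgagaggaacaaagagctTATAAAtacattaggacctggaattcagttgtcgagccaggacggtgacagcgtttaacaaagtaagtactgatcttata
The SULT2A1 window lies at chr19:47886266-47886565 on the minus strand.
SULT2A1 promoter: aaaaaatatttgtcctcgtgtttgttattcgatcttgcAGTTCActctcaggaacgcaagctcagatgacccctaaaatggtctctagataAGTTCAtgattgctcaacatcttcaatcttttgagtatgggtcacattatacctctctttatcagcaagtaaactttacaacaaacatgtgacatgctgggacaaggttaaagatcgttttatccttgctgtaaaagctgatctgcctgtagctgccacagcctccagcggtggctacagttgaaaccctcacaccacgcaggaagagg
Counted from the start site, EPHX1 start 3 holds the receptor half-site with G at -149 and the antioxidant core at -78. GSTA1 holds the HNF1 half-site on the opposite strand at -180 and a TATA box at -30. SULT2A1 holds the receptor half-site with T at both -212 and -159. No match was found in the windows of EPHX1 starts 1 and 2 or of GSTA5. Among all 35116 promoter windows of this length, 13.8% hold the half-site with G, 10.4% that with T, 13.3% the antioxidant core, 6.88% the HNF1 half-site and 11.5% the TATA box. No 2 of these motifs overlapped in the windows shown. The counts per gene do not tell which EPHX1 start was in use, and a match is not a site.

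The libraries held 54.9 to 65.3 times 1e6 counted reads in KO cells and 49.3 to 66.5 times 1e6 in WT cells. The transcript of NR1I3, which encodes CAR, stood at 11 and 10.6 CPM in KO cells under DMSO, against 11.5 and 12 CPM in WT cells under DMSO, which checks nothing, since the position of the edit is not known. Over all treatments it was 9.63 to 16.2 CPM in KO libraries and 9.33 to 15.5 CPM in WT libraries. CPM here means reads per 1e6 after the authors' normalisation. The genotypes differed widely: 57.7% of the 15792 tested loci differed between KO and WT cells under DMSO. The summed level of 11 hepatocyte markers was 51784 to 55231 CPM in KO libraries and 132880.1 to 149745 CPM in WT libraries. The sum of 6 biliary markers was 139 to 168 CPM in KO and 399 to 488 CPM in WT libraries, and that of 6 mesenchymal markers 171 to 186 CPM in KO and 102 to 116 CPM in WT libraries. The sums hide members that went opposite ways. Under DMSO 7 of the 11 hepatocyte markers were lower in KO cells, among them ALB (log2 -1.55) and APOA1 (-1.79), and 2 were higher, ARG1 (1.28) and ASGR2 (1.16). With each library divided by its total (total scaling) 6 were lower and 4 higher. Of the biliary markers KRT19 (-2.27) and SOX9 (-0.92) were lower in KO cells, and SPP1 (1.27), SOX4 (1.10) and KRT7 (0.73) were higher, with either scaling. Of the mesenchymal markers TAGLN (2.97), LUM (0.91) and ACTA2 (0.78) were higher in KO cells and COL3A1 (-0.41) was lower. COL1A1 (0.26) and POSTN (0.09) were not called. With total scaling 5 of the 6 were higher and 0 lower. None of the markers in the 3 sums was at 0 in any library.

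PB raised EPHX1, GSTA1 and SULT2A1 in both genotypes, and CITCO raised fewer of the 4 genes. In KO cells PB raised 4 of the 4 genes, where 3.87% of all tested loci rose and 3.09% fell. In WT cells PB raised 3 of the 4 (EPHX1, GSTA1 and SULT2A1), where 2.66% of loci rose and 3.76% fell. CITCO raised 1 of the 4 in KO cells, EPHX1, where 0.386% of loci rose and 0.424% fell, and 2 of the 4 in WT cells, EPHX1 and SULT2A1, where 1.18% of loci rose and 1.02% fell. None of the 4 fell in any of these comparisons. Calls throughout are limma's with a Benjamini-Hochberg adjusted p under 0.05 over all tested loci.

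EPHX1 was lower in KO than in WT cells under every treatment and rose with both agents in both genotypes. It had 791 and 776 CPM in KO cells under PB, 458 and 455 CPM in KO cells under CITCO, and 409 and 388 CPM in KO cells under DMSO. In WT cells it had 1519 and 1544 CPM under PB, 1321 and 1344 CPM under CITCO, and 930.2 and 921 CPM under DMSO. On the authors' normalised scale no group overlapped another. The order there was WT PB, WT CITCO, WT DMSO, KO PB, KO CITCO, KO DMSO from high to low. Each value rests on 24477 or more reads.

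**Figure D1:**
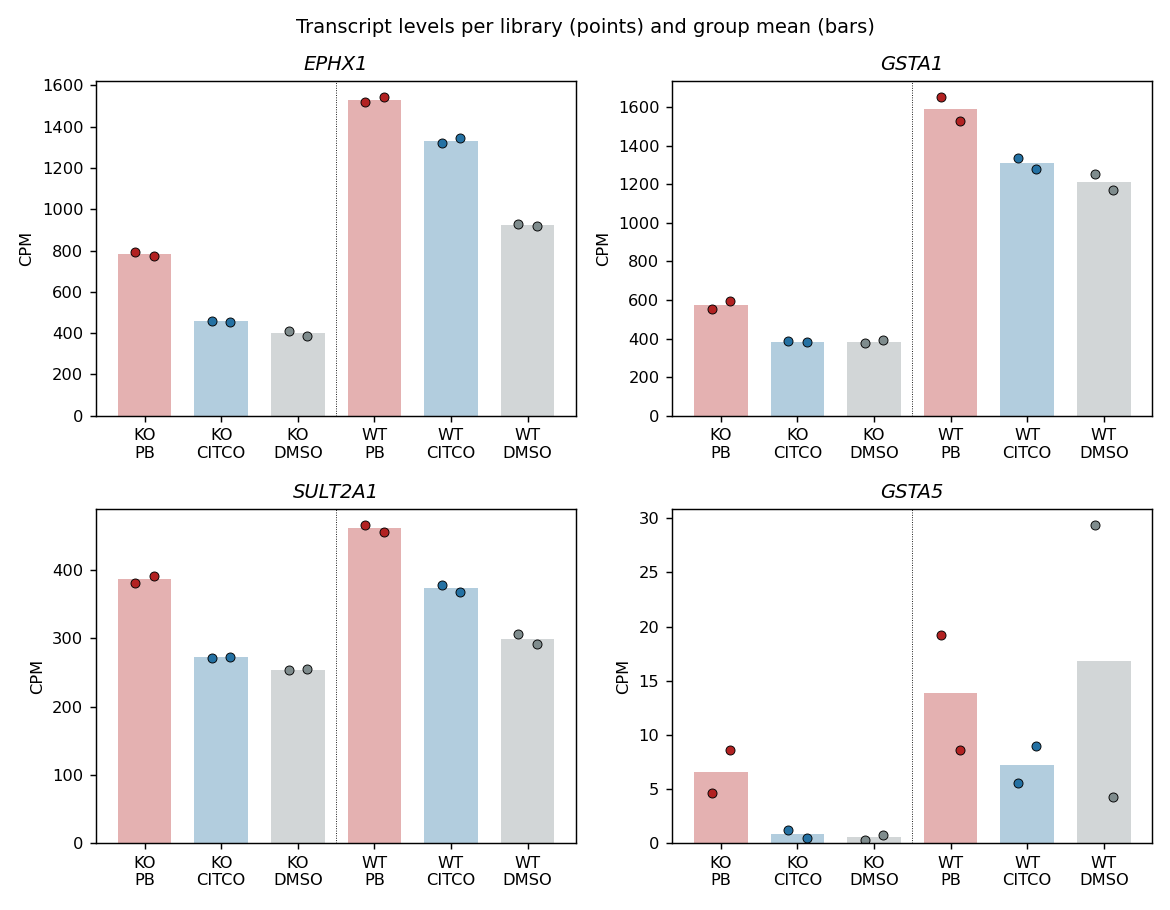
Transcript level in CPM (vertical axis, from 0, its own scale in each panel) of the 4 genes in the 6 groups; points are libraries and bars are group means of 2. On the authors' normalised scale EPHX1 and GSTA1 are higher in all WT than in all KO libraries. SULT2A1 under PB in KO cells lies above WT cells under DMSO. The GSTA5 duplicates lie far apart in WT cells under PB and DMSO.

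With PB, EPHX1 rose 1.97-fold in KO cells (log2 0.97, SE 0.033, adjusted p = 3.04e-13) and 1.65-fold in WT cells (log2 0.73, SE 0.033, adjusted p = 3.72e-11). In CPM, PB added 385 ± 13.1 in KO cells and 606 ± 13.1 in WT cells (SE, n = 2 each). The log2 response was thus larger in KO cells, by 0.25 (95% interval 0.15 to 0.35, adjusted p = 0.0115), while the added CPM was larger in WT cells. PB brought KO cells to 84.6% of the level in WT cells under DMSO on the authors' normalised scale. EPHX1 was the only 1 of the 4 genes whose PB response differed between genotypes by this test, where 0.798% of loci had a larger response in KO cells. That call was lost without KO PB 1 (adjusted p = 0.108), KO PB 2 (0.0509) or KO DMSO 2 (0.0603), and when the fit held no other libraries than those compared (0.0665). With a constant prior variance neither this difference (adjusted p = 0.266) nor that of the CITCO responses (0.191) was called.

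With CITCO, EPHX1 rose 1.15-fold in KO cells (log2 0.20, SE 0.033, adjusted p = 0.00471) and 1.44-fold in WT cells (log2 0.52, SE 0.033, adjusted p = 1.13e-08). The CITCO response was smaller in KO cells by 0.33 on the log2 scale (difference -0.33, 95% interval -0.43 to -0.23, adjusted p = 0.00167), and EPHX1 was again the only 1 of the 4 genes called, where 0.228% of loci had a smaller response in KO cells. EPHX1 kept that call without each library in turn. The rise in KO cells alone was lost without KO CITCO 1 (adjusted p = 0.0852), KO CITCO 2 (0.0769) or KO DMSO 2 (0.0752), and with a constant prior variance (0.223). For comparison, CYP2B6, the usual marker of CAR activation, had 17.4 and 16.1 CPM in KO cells under CITCO against 10.2 and 8.95 CPM in KO cells under DMSO, and 435 and 424 CPM in WT cells under CITCO against 35.2 and 37.1 CPM in WT cells under DMSO.

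**Figure D2:**
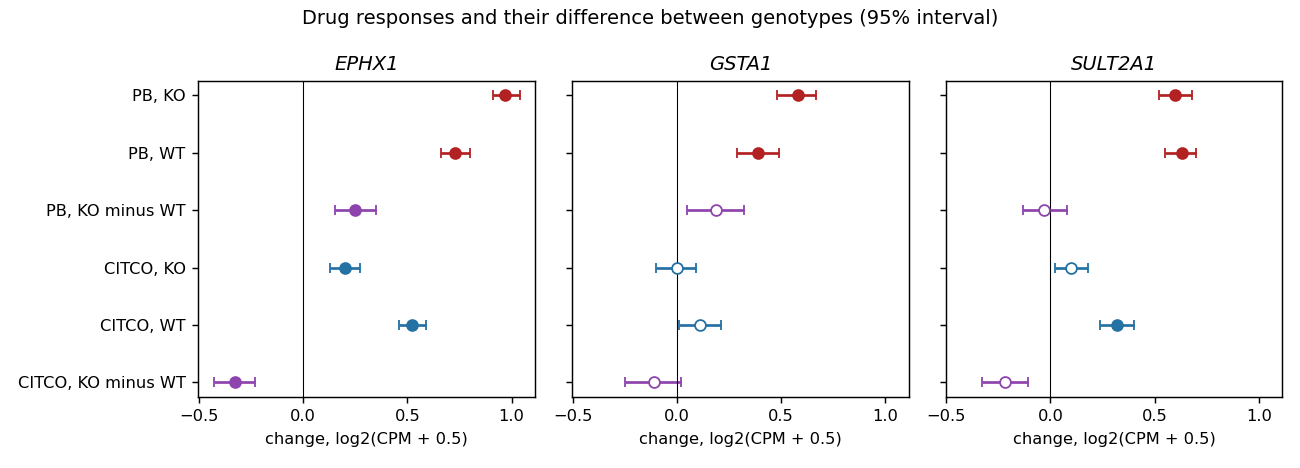
Change in log2(CPM + 0.5) with its 95% interval (horizontal axis) for EPHX1, GSTA1 and SULT2A1; rows give the PB and CITCO responses in KO and WT cells and the KO minus WT difference of each, and filled points passed the test. For EPHX1 the difference is 0.25 for PB and -0.33 for CITCO, on opposite sides of 0.

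EPHX2, the soluble epoxide hydrolase, which acts mainly on fatty acid epoxides, did not share the responses against DMSO. It had 35.6 and 36.9 CPM in KO cells under PB, 39.6 and 39.5 CPM in KO cells under CITCO, and 37 and 36.8 CPM in KO cells under DMSO. In WT cells it had 249 and 243 CPM under PB, 215 and 217 CPM under CITCO, and 234 and 234 CPM under DMSO. Neither agent gave a called change against DMSO in either genotype, while EPHX2 was lower in KO than in WT cells under DMSO by a log2 difference of -2.65 (adjusted p = 1.09e-18). In WT cells EPHX2 was higher under PB than under CITCO by 0.18 (limma, adjusted p = 0.0142), a call that total scaling ended (0.057). In KO cells that difference was -0.13 (0.109), and -0.17 with total scaling (0.017). EPHX1 and EPHX2 are the 2 of 4 listed epoxide hydrolases in the table.

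GSTA1 rose with PB and not detectably with CITCO. It had 553 and 594 CPM in KO cells under PB, 386 and 382 CPM in KO cells under CITCO, and 376 and 392 CPM in KO cells under DMSO. In WT cells it had 1652 and 1525 CPM under PB, 1337 and 1279 CPM under CITCO, and 1255 and 1169 CPM under DMSO. Among neighbours in the order, KO CITCO and KO DMSO overlapped and no other groups did.

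PB raised GSTA1 1.49-fold in KO cells (log2 0.58, SE 0.045, adjusted p = 9.44e-08) and 1.31-fold in WT cells (log2 0.39, SE 0.045, adjusted p = 1.59e-05). The difference of these responses, 0.19 on the log2 scale (95% interval 0.05 to 0.32), missed the threshold (adjusted p = 0.29), so a difference was not shown, nor were the responses shown to be alike. In CPM, PB added 189.5 ± 21.7 in KO and 376 ± 77.1 in WT cells (SE). Even with PB, KO cells reached 47.3% of the level of WT cells under DMSO. CITCO gave a fold change of 0.999 in KO cells (adjusted p = 0.999) and of 1.08 in WT cells (log2 0.11, 95% interval 0.01 to 0.21, adjusted p = 0.234). The interval in KO cells, -0.10 to 0.09, bounds the CITCO effect on GSTA1 on both sides of 0.

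Of the other alpha class genes, GSTA2 rose with PB in both genotypes and GSTA4 in WT cells. GSTA2, the closest copy of GSTA1, had 266 and 256 CPM in KO cells under PB against 203 and 216 CPM in KO cells under DMSO, and 403 and 369 CPM in WT cells under PB against 269 and 267 CPM in WT cells under DMSO. The test called both changes, with log2 0.32 in KO cells (adjusted p = 0.00101) and log2 0.52 in WT cells (4.7e-06). GSTA4, the more distant member, which conjugates the lipid peroxidation product hydroxynonenal, had 6.67 and 5.32 CPM in KO cells under PB against 4.62 and 5.79 CPM in KO cells under DMSO, with no call. In WT cells GSTA4 had 14 and 14.3 CPM under PB against 10.1 and 10.3 CPM under DMSO (log2 0.45, adjusted p = 0.0248). With the reads of GSTA1, GSTA2, GSTA5 and the loci GSTA6P, GSTA7P and GSTA10P added together, a sum chosen after the data were seen, the PB response was 0.51 in KO cells (adjusted p = 5.95e-07) and 0.41 in WT cells (1.31e-05). If each read was counted once, the sum does not depend on how reads were divided among these loci. Whether reads with several matches were counted once, repeatedly or not at all is not known. The sum also does not show how much of the rise was GSTA1's own.

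GSTA5 was scarce, and its duplicates lay apart, most of all in WT cells under DMSO. It had 4.61 and 8.6 CPM in KO cells under PB, 1.21 and 0.465 CPM in KO cells under CITCO, and 0.351 and 0.762 CPM in KO cells under DMSO. In WT cells it had 19.2 and 8.64 CPM under PB, 5.58 and 8.96 CPM under CITCO, and 29.4 and 4.3 CPM under DMSO. The 3 WT groups overlapped each other, KO cells under PB overlapped WT cells under CITCO and under DMSO, and KO cells under CITCO and DMSO lay below all other libraries.

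In reads, the GSTA5 duplicates held 21 and 55 in KO cells under DMSO and 1316 and 205 in WT cells under DMSO. GSTA6P and GSTA10P, 2 loci whose names mark them as pseudogenes of the class, were uneven too. GSTA10P had 581 and 0 reads in WT cells under DMSO, and GSTA6P had 367 and 9 reads in WT cells under PB. Summed over GSTA5, GSTA6P and GSTA10P, the level was 10.3 and 14.2 CPM in KO cells under PB, 1.23 and 0.558 CPM in KO cells under CITCO, and 0.401 and 0.803 CPM in KO cells under DMSO. In WT cells that sum was 27.3 and 9.02 CPM under PB, 8.34 and 18 CPM under CITCO, and 42.3 and 4.45 CPM under DMSO. The sum therefore did not bring the WT duplicates together.

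**Figure D3:**
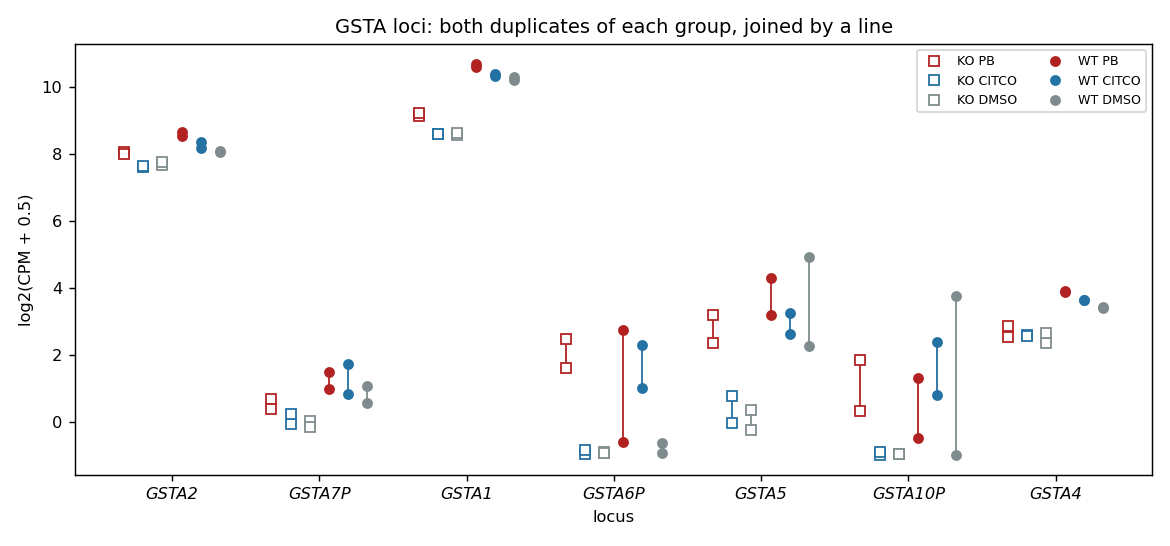
Level in log2(CPM + 0.5) (vertical axis) of 7 loci of the GSTA cluster; open squares are KO and filled circles WT libraries, and a line joins the duplicates of a group. Duplicates of GSTA1, GSTA2 and GSTA4 nearly coincide, whereas those of GSTA5 lie apart, as do those of GSTA6P and GSTA10P under PB and in WT cells under CITCO, and those of GSTA10P in WT cells under DMSO; levels are not adjusted for length and are not compared between loci.

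In KO cells GSTA5 was higher with PB by 2.72 on the log2 scale (SE 0.554, adjusted p = 0.00418), that is 6.58-fold on the scale with 0.5 CPM added. The call was lost without KO PB 2 (adjusted p = 0.0978) or KO DMSO 1 (0.0719), and with a constant prior variance (0.1). In WT cells its PB change was 0.16 (95% interval -1.0 to 1.33, adjusted p = 0.919), too wide an interval to read a direction from, and leaving out WT DMSO 1 made it 1.48 (adjusted p = 0.0294) while leaving out WT DMSO 2 made it -1.15 (0.0791). With CITCO its change was 0.31 in KO cells (adjusted p = 0.912) and -0.66 in WT cells (0.594). The PB responses differed between genotypes by 2.56 (adjusted p = 0.203), and by 3.87 (0.000218) without WT DMSO 2. GSTA5 is not among the 14161 loci of the authors' deposited tables of comparisons.

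SULT2A1 responded to PB to nearly the same extent in both genotypes. It had 381 and 390.4 CPM in KO cells under PB, 271 and 273 CPM in KO cells under CITCO, and 253 and 255 CPM in KO cells under DMSO. In WT cells it had 466 and 456 CPM under PB, 378 and 368 CPM under CITCO, and 306 and 291 CPM under DMSO. On the authors' normalised scale no group overlapped another. There, unlike for EPHX1 and GSTA1, KO cells under PB stood above WT cells under CITCO and DMSO. They reached 129% of the level in WT cells under DMSO.

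The rise with PB was 1.52-fold in KO cells (log2 0.60, SE 0.037, adjusted p = 2.38e-09) and 1.54-fold in WT cells (log2 0.63, SE 0.037, adjusted p = 1.62e-09). The 95% interval of their difference, -0.13 to 0.08 on the log2 scale, bounds how far the PB responses can differ between genotypes on these libraries (difference -0.03, adjusted p = 0.934). CITCO raised SULT2A1 1.25-fold in WT cells (log2 0.32, adjusted p = 3.69e-05). In KO cells the CITCO change was 1.07-fold (log2 0.10, 95% interval 0.02 to 0.18, adjusted p = 0.291), with KO CITCO libraries 18.1 ± 1.47 CPM above KO DMSO libraries (SE). The difference of the CITCO responses, -0.22 (95% interval -0.33 to -0.11), had an adjusted p of 0.0923, and of 0.0479 without WT DMSO 1.

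PB was compared with CITCO directly within each genotype. In KO cells 4 of the 4 genes were higher under PB than under CITCO, where 3.57% of all tested loci were higher. The log2 differences were 0.78 for EPHX1 (adjusted p = 1.42e-11), 0.58 for GSTA1 (9.83e-08), 0.50 for SULT2A1 (3.85e-08) and 2.41 for GSTA5 (0.0127). The GSTA5 call was lost without KO PB 2 (adjusted p = 0.188) or KO CITCO 2 (0.185). In WT cells 3 of the 4 were higher under PB than under CITCO, where 2.65% of loci were higher: SULT2A1 by 0.30 (adjusted p = 3.96e-05), GSTA1 by 0.28 (0.000819) and EPHX1 by 0.20 (0.000877). With a constant prior variance the WT calls of GSTA1 (0.0658) and EPHX1 (0.074) were lost. CYP2B6 had 442 and 447 CPM under PB and 435 and 424 CPM under CITCO in WT cells. In KO cells CYP2B6 was 13.3-fold higher under PB than under CITCO (log2 3.73, limma, adjusted p = 5.26e-18). Against DMSO, PB raised CYP2B6 22.7-fold in KO cells and 12.2-fold in WT cells. Because doses are not given, these differences compare the treatments as applied.

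KO and WT cells were compared under each treatment. Under DMSO 4 of the 4 genes were lower in KO cells, where 29.4% of loci were lower. Under CITCO 4 of the 4 were lower, where 29.8% of loci were lower, and under PB 3 of the 4, where 28.9% of loci were lower. GSTA1 had the ratio of KO to WT cells farthest from 1 among the 3 abundant genes, 0.317 under DMSO (log2 -1.66, adjusted p = 1.62e-15), 0.361 under PB (-1.47) and 0.293 under CITCO (-1.77). For EPHX1 the ratios were 0.43 under DMSO (log2 -1.22, adjusted p = 1.46e-15), 0.512 under PB (-0.97) and 0.343 under CITCO (-1.54). SULT2A1 was lower by far less, with log2 differences of -0.23 under DMSO (adjusted p = 2.83e-05), -0.26 under PB (8.22e-06) and -0.45 under CITCO (5.79e-09). GSTA5 differed by -3.53 under DMSO (adjusted p = 2.66e-05), -0.97 under PB (0.141) and -2.56 under CITCO (0.000662), and by -1.53 (0.048) under PB without WT PB 2.

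These genotype differences depend on the scaling. Dividing each library by its total, in place of the deposited normalisation, moved the median KO against WT difference of all loci up by 0.251 under DMSO and by 0.237 under PB and CITCO. Under DMSO 28.3% of all loci were higher and 29.4% lower in KO cells on the deposited scale, and 52.5% higher and 14.6% lower with total scaling. SULT2A1 then differed by 0.03 under DMSO (adjusted p = 0.416), in the other direction, and by -0.01 under PB (0.892), so its lower level in KO cells held only under CITCO. EPHX1 and GSTA1 stayed lower in KO cells under all 3 treatments with either scaling. Orders of groups across genotypes, and KO levels as percentages of WT levels, were read on the deposited scale. With total scaling the EPHX1 libraries of KO cells under PB overlapped those of WT cells under DMSO. The SULT2A1 libraries of KO and WT cells under PB then overlapped too. GSTA2 was lower in KO cells under DMSO by -0.36 on the deposited scale (adjusted p = 2.37e-05) and by -0.09 with total scaling (0.167). The hepatocyte markers given above also differed between the genotypes, and their part in these differences was not tested. In such bulk samples, fewer cells of a type and less RNA per cell cannot be told apart.

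Beside SULT2A1, 5 further cytosolic sulfotransferases of the 12 listed were in the table. With PB, 4 of the 6 rose and 2 fell in KO cells, and 3 rose and none fell in WT cells (median log2 change 0.32 and 0.35, against 0.001 and -0.005 over all loci). Of all tested loci 3.87% rose and 3.09% fell in KO cells, and 2.66% rose and 3.76% fell in WT cells. SULT1C2 rose by 0.36 on the log2 scale in KO cells (adjusted p = 0.000159) and by 0.41 in WT cells (4.53e-05). SULT1A1, which sulfates phenols and drugs, had 68.4 and 67.1 CPM in KO cells under PB against 56.6 and 55.5 CPM in KO cells under DMSO, and 85.9 and 89.6 CPM in WT cells under PB against 66.6 and 69.3 CPM in WT cells under DMSO. Both SULT1A1 changes were called, at 0.27 in KO cells (adjusted p = 0.0026) and 0.37 in WT cells (0.000152). SULT1A2 rose in KO cells (0.48, adjusted p = 0.00616) and stood at 0.34 in WT cells (0.0534). SULT1B1, which sulfates thyroid hormones, fell in KO cells (log2 -0.29, adjusted p = 0.00116), to 69.8 and 74.2 CPM against 87.4 and 88.8 CPM under DMSO. SULT1C3, a scarce transcript, fell in KO cells too, to 0.391 and 0.264 CPM against 1.35 and 0.983 CPM under DMSO (log2 -1.01, adjusted p = 0.0057). SULT1A1 and SULT1A2 are close copies, so their separate values are uncertain.

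CITCO raised 4 of the 6 sulfotransferases in WT cells (median 0.27 against -0.007 over all loci) and none in KO cells (0.04 against -0.002). Of all tested loci 1.18% rose with CITCO in WT cells and 0.386% in KO cells. In WT cells the 4 were SULT1A2 (log2 0.50, adjusted p = 0.011), SULT2A1, SULT1A1 (0.31, adjusted p = 0.0022) and SULT1C2 (0.22, adjusted p = 0.0365). For none of the 6 did the difference of the CITCO responses between genotypes pass limma's test. Under DMSO 3 of the 6 were higher and 2 lower in KO cells, and 4 higher and 0 lower with total scaling, beside the shares of all loci given above. SULT1A2 (0.52, or 0.77 with total scaling) and SULT1C2 (0.31, or 0.57) were higher in KO cells with either scaling.

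Supply of the sulfate donor changed in places. Of 7 genes, PB raised 2 in KO cells (SLC26A1 and SLC35B3) and 1 in WT cells, and CITCO raised 1 in WT cells, where 3.87%, 2.66% and 1.18% of all loci rose. SLC35B3 rose by 0.23 (adjusted p = 0.0405), a call that total scaling ended (0.079). The gene in all 3 comparisons was SLC26A1, a sulfate transporter of the plasma membrane, with log2 changes of 0.48 for PB in KO cells (adjusted p = 0.00843), 0.44 for PB in WT cells (0.0162) and 0.47 for CITCO in WT cells (0.0236). PAPSS2, which makes the donor PAPS in liver, had 163 and 161 CPM in KO cells under DMSO against 355 and 329 CPM in WT cells under DMSO (log2 -1.08, adjusted p = 2.2e-13, and -0.81 with total scaling). PAPSS2 was not called with either agent. STS, which removes sulfate from steroids, was higher in KO cells under DMSO by 0.32 (adjusted p = 0.000973).

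**Figure D4:**
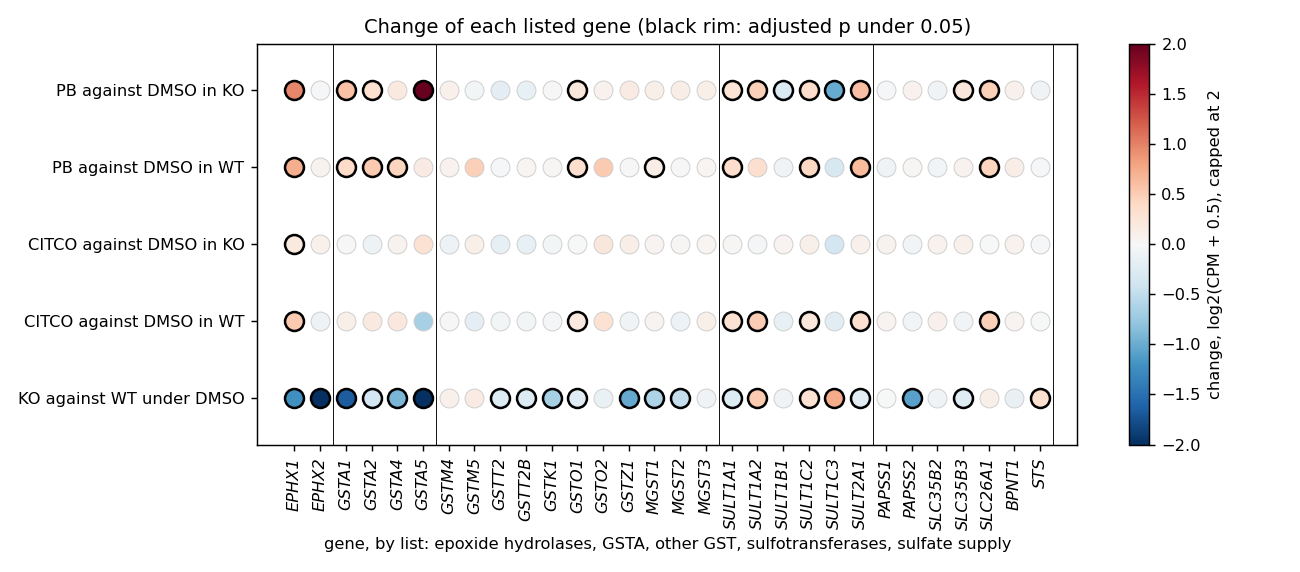
Change in log2(CPM + 0.5) (colour, capped at 2) of each listed gene in the table (columns, grouped by list) in 5 comparisons (rows); a black rim marks an adjusted p under 0.05. The PB rows hold rises of EPHX1, GSTA1, GSTA2, SULT1A1, SULT1C2 and SULT2A1 in both genotypes, and the bottom row holds the lower KO levels of EPHX1, EPHX2 and the alpha class genes.

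Glutathione transferases outside the alpha class moved little with the drugs. Of the 11 in the table, 1 rose with PB in KO cells, where 3.87% of all loci rose, and 2 in WT cells, where 2.66% did. The second in WT cells was MGST1 (log2 0.13, adjusted p = 0.0299), whose call total scaling ended (0.0529). Of the same 11, 1 rose with CITCO in WT cells and 0 in KO cells, where 11 of 11 missed the threshold by limma. The shares of all loci that rose with CITCO were 1.18% in WT and 0.386% in KO cells. Median log2 changes were 0.10 and 0.04 with PB in KO and WT cells and 0.02 and -0.04 with CITCO. GSTO1, of the omega class, rose with PB in KO cells (log2 0.22, adjusted p = 0.00155) and with both agents in WT cells (PB 0.33, adjusted p = 3.74e-05; CITCO 0.19, adjusted p = 0.0187). Under DMSO 7 of the 11 were lower in KO cells, among them GSTZ1 (-1.02) of tyrosine breakdown, GSTK1 (-0.66) and the microsomal MGST1 (-0.61). Over all loci 29.4% were lower. With total scaling 4 of the 11 were lower and 2 higher, against 14.6% and 52.5% of all loci, and GSTO1 and MGST3 changed sign.

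Of 10 genes that make, recycle or export glutathione and its conjugates, PB raised 3 in both genotypes, where 3.87% of all loci rose in KO cells and 2.66% in WT cells. They were ABCC2, the canalicular exporter of glutathione and glucuronide conjugates (log2 1.16 in KO cells, adjusted p = 4.33e-13; 0.97 in WT cells, adjusted p = 9.94e-12), SLC7A11, the cystine importer (0.83 in KO and 0.81 in WT cells), and GCLM, the modifier subunit of the first step of glutathione synthesis (0.40 in KO and 0.36 in WT cells). ABCC3, another exporter, was lower with PB in WT cells (-0.15, adjusted p = 0.0412). CITCO raised ABCC2 and SLC7A11 in KO cells, where 0.386% of all loci rose. In WT cells, where 1.18% did, it raised the same 3 genes as PB. ABCC2 had 472 and 477 CPM in KO cells under PB against 212 and 211 CPM in KO cells under DMSO, and 674 and 636 CPM in WT cells under PB against 344 and 325 CPM in WT cells under DMSO. GSR, which regenerates reduced glutathione, had 77.2 and 78 CPM in KO cells under DMSO against 190.0 and 189 CPM in WT cells under DMSO (log2 -1.28, adjusted p = 1.65e-14, and -1.02 with total scaling). GSR does not stand for the list. With total scaling 6 of the 10 were higher in KO cells under DMSO, among them SLC7A11 (1.10), and 3 were lower. Of all loci 52.5% were higher and 14.6% lower on that scale. Between the 2 scalings 3 of the 10 changed sign.

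Enzymes around the steroid and bile acid substrates of SULT2A1 went several ways. Of 8 genes in the table, PB raised 2 and lowered 3 in KO cells, and raised 3 and lowered 1 in WT cells. Over all loci PB raised 3.87% and lowered 3.09% in KO cells, and raised 2.66% and lowered 3.76% in WT cells. HSD3B1, which oxidises dehydroepiandrosterone and related steroids, fell to 8.09 and 6.24 CPM in KO cells under PB, against 17.7 and 16.3 CPM in KO cells under DMSO (log2 -1.20, adjusted p = 2.06e-07). SLC27A5, which activates bile acids for conjugation, rose by 0.74 in KO cells (adjusted p = 4.6e-07) and by 0.31 in WT cells (0.00578). CYP7A1, the rate-limiting enzyme of bile acid synthesis, rose with PB by 0.24 in KO cells (adjusted p = 0.0404, or 0.0696 with total scaling, which ends the call) and 0.28 in WT cells (0.0163), and the bile acid importer SLC10A1 rose in WT cells (0.35, 0.0172). CYP8B1, of bile acid synthesis, fell by 0.18 in KO cells (0.0425). BAAT, which joins bile acids to amino acids, was lower with PB, by -0.21 in KO cells (adjusted p = 0.00118) and -0.16 in WT cells (0.0147). CYP17A1, which leads to dehydroepiandrosterone, had 18.7 and 17.7 CPM in KO cells under DMSO against 1.7 and 1.87 CPM in WT cells under DMSO (log2 3.04, adjusted p = 6.1e-13). Most of the list went the other way. With total scaling 3 of the 8 genes were higher and 5 lower in KO cells under DMSO. Among the lower were SLC10A1 (log2 -1.78) and CYP7A1 (-1.01). Of all loci 52.5% were higher and 14.6% lower on that scale.

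Of 20 receptors and liver factors, 3 rose with PB in both genotypes (3.87% of all loci in KO cells and 2.66% in WT cells): NR1I3 itself (log2 0.54 in KO and 0.36 in WT cells), NFE2L2, which encodes NRF2 (0.23 and 0.28), and PPARA (0.21 and 0.34). NFE2L2 was also the 1 of 20 that rose with CITCO, by 0.25 in KO cells (adjusted p = 0.0302) and 0.27 in WT cells (0.00767). With CITCO 0.386% of all loci rose in KO cells and 1.18% in WT cells. NR1I2, which encodes PXR, was not called with either agent in either genotype. Under DMSO 13 of the 20 were lower and 3 higher in KO cells, where 29.4% of all loci were lower and 28.3% higher. With total scaling 8 were lower and 6 higher, where 14.6% of all loci were lower and 52.5% higher. GATA4 (-1.71), FOXA1 (-1.24) and CEBPA (-1.11) were lower with either scaling.

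The loci whose pattern over the 12 libraries was most like each gene were sought among 11612 loci with a mean of at least 5 CPM. Likeness was the root mean square difference of centred log2(CPM + 0.5), for which smaller is more alike. For EPHX1 they were the glucuronosyltransferase UGT2B4 (0.1), the aldo-keto reductase AKR1C2 (0.12) and HNF4A-AS1 (0.123), where EPHX1 itself varied by 0.722 on that scale. For GSTA1, which varied by 0.847, they were PTGR1 (0.078), SERPIND1 (0.093) and CTH (0.126). For SULT2A1, which varied by 0.304, they were the glucuronosyltransferase UGT1A1 (0.048), the drug exporter SLC47A1 (0.057) and RP11-1113L8.1 (0.093). The nearest to GSTA5 were far from it, with ETNPPL at 0.864, CYP2C8 at 0.889 and ABCG8 at 0.952 against 1.618 for GSTA5 itself. The 12 libraries share genotype and treatment, so these are descriptions.

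UGT1A1 shows how close the likeness to SULT2A1 was. Its means were 992 ± 18.3 CPM in KO cells under PB, 703 ± 6.83 CPM under CITCO and 665 ± 11.4 CPM under DMSO (SD, n = 2). In WT cells they were 1151 ± 32.6 CPM under PB, 1004 ± 1.73 CPM under CITCO and 820.4 ± 19.3 CPM under DMSO. In both genes the KO cells under PB stood above the WT cells under DMSO. Against WT cells under CITCO, on the deposited scale, the KO cells under PB stood higher for SULT2A1. For UGT1A1 they stood lower in the mean, with overlapping libraries. With total scaling they stood higher for UGT1A1 too. PTGR1, an NADP-dependent reductase of unsaturated aldehydes and ketones, had means of 496 ± 11.1, 363 ± 12.5 and 339 ± 2.22 CPM in KO cells under PB, CITCO and DMSO. Its means in WT cells were 1413 ± 22.7, 1174 ± 5.72 and 975 ± 2.47 CPM under PB, CITCO and DMSO, and as for GSTA1 all WT libraries stood above all KO libraries.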

How the data were processed

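Per the labels' protocols, total RNA was extracted by column and standard Illumina libraries were made. The submitters' processing notes name, without roles, edgeR 2.12, Cuffdiff 2.1.1, Cufflinks 2.1.1, TopHat2 2.0.10 and Bowtie 1.0.0, and 2 human genome builds, so coordinates of the counting are not given here. The table the authors deposited is named as CPM but holds a normalized signal: columns sum to 0.9 to 0.935 times 1e6 in KO and 1.07 to 1.11 times 1e6 in WT libraries, so library sizes carry normalisation factors. Dividing by the worth of 1 read gave whole numbers throughout (tolerance 0.001 reads), which a general check accepted for WT columns only, so count models were limited to WT libraries. The authors also deposited 7 tables of comparisons with log2 fold changes, a test score, p-values and FDR. In the authors' deposited tables named KO PB against WT PB and KO CITCO against WT CITCO, log2 values correlated across loci with r = 0.993 and r = 0.994 with the differences of responses computed here, and with r = 0.269 and r = 0.194 with the comparisons named. For EPHX1 the authors' deposited tables give 0.25 (FDR 0.0462) and -0.33 (FDR 0.0032). Loci are not independent replicates.

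The planned test for normalized values was used: limma 3.58.1 (R 4.3.3) with a trend on log2(CPM + 0.5), all 12 libraries in 1 fit with 6 group means, over 15792 loci that reached 1 CPM in 2 or more libraries, adjusted by Benjamini-Hochberg. Fold changes on this scale understate changes of low genes. GSTA5 passed the filter on low values through libraries of both genotypes. The fit was tested on simulated data. No duplicates were identical, and all differed by more than sampling noise (chi-square per degree of freedom 4.15 to 10.4). Named genes were the 4 genes, NR1I3, NR1I2, CYP2B6 and CYP3A4, up to 4 called genes of each list per comparison, taken by size of change among those averaging 5 CPM or more in some group, and the 3 loci most like each gene. SULT1A1 and SULT1C3 with PB in KO cells, CYP8B1 with PB, the single cell type markers, GSTA6P, GSTA7P and GSTA10P were named after their values were seen. The genes and lists were chosen with earlier results of these data known. Alternatives were other pseudocounts (0.1 and 2), no filter or a filter in 8 libraries, total scaling, a constant prior variance, only the libraries compared, a replicate block, leaving out each library, and edgeR 4.0.16 and DESeq2 1.42.0 on recovered reads of WT libraries.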

Additional observations from a re-analysis of the deposited data

Results flagged for a closer look

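EPHX1 is listed for both of its differences between genotypes. Its PB response in KO cells exceeded that in WT cells by 0.25 on the log2 scale (limma, adjusted p = 0.0115), with means of 784 ± 10.3 CPM under PB and 399 ± 15.4 CPM under DMSO in KO cells, and 1531 ± 17.5 and 926 ± 6.15 CPM in WT cells (SD, n = 2). Its CITCO response in KO cells was below that in WT cells, by a difference of -0.33 (limma, adjusted p = 0.00167), with means under CITCO of 457 ± 1.68 CPM in KO cells and 1332 ± 15.8 CPM in WT cells. On the log2 scale the genotypes thus differed in opposite directions for the 2 agents. This was not particular to EPHX1. The differences for PB and CITCO, all called, were 0.90 and -2.78 for CYP2B6, 1.47 and -0.43 for CYP2C8, and 0.32 and -0.50 for AKR1C2. For PB, CYP3A4 had a smaller response in KO cells (-0.76) and UGT2B4 was not called (0.02). In CPM both agents added less EPHX1 in KO cells, PB 385 in KO against 606 in WT cells and CITCO 58.1 in KO against 407 in WT cells. The call for PB was lost under 5 of the alternatives and that for CITCO with a constant prior variance. Groups of 2 libraries are too small for a test of outlying samples.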

How the results depend on the processing

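Of the calls for EPHX1, GSTA1 and SULT2A1 against DMSO, those for PB in both genotypes and for CITCO in WT cells kept their direction and side of the threshold under every alternative run. With total scaling SULT2A1 in KO against WT cells under DMSO turned to 0.03 and GSTA1 with CITCO in KO cells, which was near 0, to 0.02. With a constant prior variance the number of the 4 genes called fell to 0 for CITCO in KO cells, 0 for either difference of responses and 1 for PB against CITCO in WT cells. In fits of only the libraries compared, 0 genes were called for the difference of PB responses. Without 1 library at a time, the number called was 0 to 2 for the difference of PB responses, 1 to 2 for that of CITCO responses and 0 to 1 for CITCO in KO cells. Values that changed sign without 1 library were GSTA5 with PB in WT cells (-1.15 to 1.48), with CITCO in WT cells (-1.98 to 0.66), with CITCO in KO cells (-0.10 to 0.72) and in the difference of CITCO responses (-0.35 to 2.29), GSTA1 with CITCO in KO cells (-0.03 to 0.03) and SULT2A1 in the difference of PB responses (-0.06 to 0.01). GSTA5 with PB in WT cells was -0.26 by both edgeR and DESeq2. The cause of these changes was not tested. The replicate numbers were not treated as pairs in the main fit. Same-numbered libraries correlated at -0.0781 to 0.288 over 15 pairs of groups, and 4 of these pairs were over 0.1. Whether libraries of those groups were handled together is not known. A replicate block changed no call of the 4 genes, and EPHX1 kept 0.25 (adjusted p = 0.0138) and -0.33 (0.00173).

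Loci called over the alternatives other than leaving out a library ranged from 612 to 1517 for PB in KO cells (1099 as reported), 387 to 1095 for PB in WT cells (1014), 20 to 254 for CITCO in KO cells (128), 96 to 367 for CITCO in WT cells (348), 25 to 159 (159) and 6 to 58 (53) for the differences of PB and CITCO responses, and 452 to 1961 (865) and 434 to 1199 (992) for PB against CITCO in KO and WT cells. Without 1 library at a time the counts were 522 to 671 for PB in KO cells, 40 to 55 and 109 to 992 for CITCO in KO and WT cells, 62 to 213 and 23 to 491 for the differences of PB and CITCO responses, and 392 to 457 and 377 to 1219 for PB against CITCO in KO and WT cells. Groups of 2 libraries and the wide spread of GSTA5 limit what can be read.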

Other observations

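CYP3A4, a marker of PXR activity, had means of 10671 ± 364 CPM in KO cells under PB and 1090.3 ± 14.8 CPM in KO cells under DMSO, against 3928 ± 144 CPM in WT cells under PB and 237 ± 7.16 CPM in WT cells under DMSO (SD, n = 2). CYP3A4 was thus higher in KO than in WT cells under PB and DMSO, and it was 3.13-fold higher under CITCO. EPHX1, GSTA1 and SULT2A1 were lower in KO cells under each treatment on the deposited scale. CITCO raised CYP3A4 2.33-fold in KO cells (limma, adjusted p = 1.76e-13) and 3.43-fold in WT cells (1.36e-16). CYP2C8 rose 8.33-fold with PB in KO cells and 3-fold in WT cells.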
